A study of Mus musculus with 35 samples.

Results

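The 33 genes described here mark the cells of brain blood vessels. Their rows were taken by gene symbol from a deposited table of 39109 genes and spike-in sequences, and 23 of them mark endothelial cells and 10 mark mural cells, that is pericytes and vascular smooth muscle. The counts come from polyadenylated RNA of the striatum of 35 mice, with 1 library per mouse, and total counts ran from 51403599 to 78158006 per library. The mice were 21.71 to 23 weeks old and fall into 4 groups. Htt+/+ *Hdac2* WT (n = 8) and Htt+/+ *Hdac2* KO (n = 9) carried normal mouse huntingtin, and Htt Q111/+ *Hdac2* WT (n = 7) and Htt Q111/+ *Hdac2* KO (n = 11) carried 1 huntingtin allele with a knocked-in expanded CAG repeat. In the KO groups both *Hdac2* alleles were floxed and a Cre driven by a fragment of the *Ppp1r1b* gene deleted them in medium-spiny neurons. The *Hdac2* WT mice had no Cre, and all but 2 of them, both Htt+/+, also had 2 floxed alleles, so that Cre itself and the deletion cannot be told apart. The background was C57BL/6J with some residual 129.

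Endothelial cells line the vessel, seal it with tight and adherens junctions and carry nutrients and drugs across it through transporters, while pericytes on capillaries and smooth muscle on arterioles surround them and set vessel tone. In the brain these features form the blood-brain barrier. It depends on Wnt, Notch, platelet-derived growth factor and angiopoietin signals among vessel cells and the cells around them. Since Cre is driven from a promoter of striatal projection neurons, vessel cells are taken to keep *Hdac2*, which was not measured in them here. In mice with the expanded huntingtin allele, vessel cells carry it like all other cells.

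The targeted gene was looked at first. *Hdac2* had a median of 103.9 CPM (counts relative to library size, scaled by trimmed mean of M values) in Htt+/+ *Hdac2* WT, with 97.6 lowest and 106.5 highest, and a median of 94.4 in Htt+/+ *Hdac2* KO, from 89.4 to 99.2. In the mice with the expanded allele the medians were 104.6 (95.5 to 111.4) without and 95.5 (89.8 to 101.2) with the deletion. All 9 and all 11 KO libraries lay below the median of the WT group of their own huntingtin genotype, and the average log2 fold change was −0.10 (standard error 0.0233, adjusted p = 0.00171). Of 15 alternatives described below, 2 ended this call, with adjusted p up to 0.263, while the estimate ran from −0.13 to −0.09. The counts cover the whole gene, of which the deletion removes a part, so they do not measure how many cells lost it.

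All 33 vessel genes were detected in each library, the lowest count being 68 for *Anpep*, an aminopeptidase of pericytes, and all 33 were tested in each comparison. Counts were read as including introns, so the levels per kilobase of exon that follow rank the genes only roughly. On that scale *Itm2a*, a membrane protein of endothelial cells, was the most abundant at a mean of 35.8 CPM over the 35 libraries. It was followed by the pericyte genes *Rgs5*, a regulator of G-protein signalling, at 30.5, and *Vtn*, the matrix protein vitronectin, at 30.1. The 3 smooth muscle genes lay below these 3 on this per-kilobase scale, with 5.78 for *Tagln*, 2.86 for *Acta2* and 0.831 for *Myh11*. *Tagln* was still slightly above the endothelial gene *Flt1* at 5.58. *Anpep* was lowest of the 33 at 0.524. Lower amounts of these RNAs in bulk tissue can come from fewer vessel cells or from less RNA per cell, which cannot be told apart here.

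The genes differed in how much they varied among mice of 1 group. The standard deviation of log2 CPM within groups was 0.44 for *Tagln*, the highest, 0.40 for *Sox18*, a transcription factor of endothelial cells, and 0.34 for *Cldn5*, the main claudin of their tight junctions. It was 0.13 for both *Slco1c1*, a thyroid hormone transporter, and *Pltp*, the phospholipid transfer protein, the lowest of the 33. Across all libraries the coefficient of variation of CPM was 36.1% for *Tagln* and 9.82% for *Slco1c1*.

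Some libraries stood apart in the summed CPM of these genes. The 23 endothelial genes summed to 684 ± 54.2 CPM (mean ± SD, n = 8) in Htt+/+ *Hdac2* WT, to 652 ± 59.8 (n = 7) in Htt Q111/+ *Hdac2* WT, to 760.1 ± 80.5 (n = 9) in Htt+/+ *Hdac2* KO and to 699 ± 69.2 (n = 11) in Htt Q111/+ *Hdac2* KO. The highest library was Htt+/+ *Hdac2* KO replicate 9 at 896, and among the Htt+/+ *Hdac2* WT mice replicate 9 had 813 where the other 7 lay between 643 and 692. The 10 mural genes summed to 269 ± 33.1, 276 ± 34.5, 304 ± 32.1 and 287 ± 35.3 CPM in the same order of groups. *Slco1c1* made up 11.97% of the endothelial sum, and *Rgs5* made up 48.7% of the mural sum.

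Both sums moved with the ID series, the first letter of the name each mouse has in the labels (A, V or Z). Libraries of series Z had a mean endothelial sum of 775 CPM (n = 11), against 688 in series A (n = 8) and 659 in series V (n = 16), and mural sums of 317, 297 and 257. Series Z holds 5 of the 9 Htt+/+ *Hdac2* KO mice but 1 of the 8 Htt+/+ *Hdac2* WT mice. Within series V, the endothelial sum ran from 643 to 692 in 5 Htt+/+ *Hdac2* WT libraries and was 676, 677 and 793 in the 3 Htt+/+ *Hdac2* KO libraries, which overlap. The mural sum of series V did not overlap between these groups, with 236 to 256 against 274 to 286, but in series A the KO library, at 284, was below 2 WT libraries at 289 and 304, and in series Z the WT library, at 326, lay among 5 KO libraries at 278 to 362. With the expanded allele, series Z had endothelial sums of 661 and 687 CPM in 2 WT and 743 to 815 in 3 KO libraries. The mural sum of series A ran the other way, with 309 and 321 in 2 WT and 280 to 304 in 3 KO libraries. The endothelial sums of series A and V and the mural sums of V and Z overlapped between these groups. The sum of 10 astrocyte markers, whose most abundant gene is *Aldoc* (30.1% of that sum), followed the same letters, with 2893 CPM in series Z, 2674 in A and 2533 in V, and its part in the vessel sums was not tested.

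**Figure D1:**
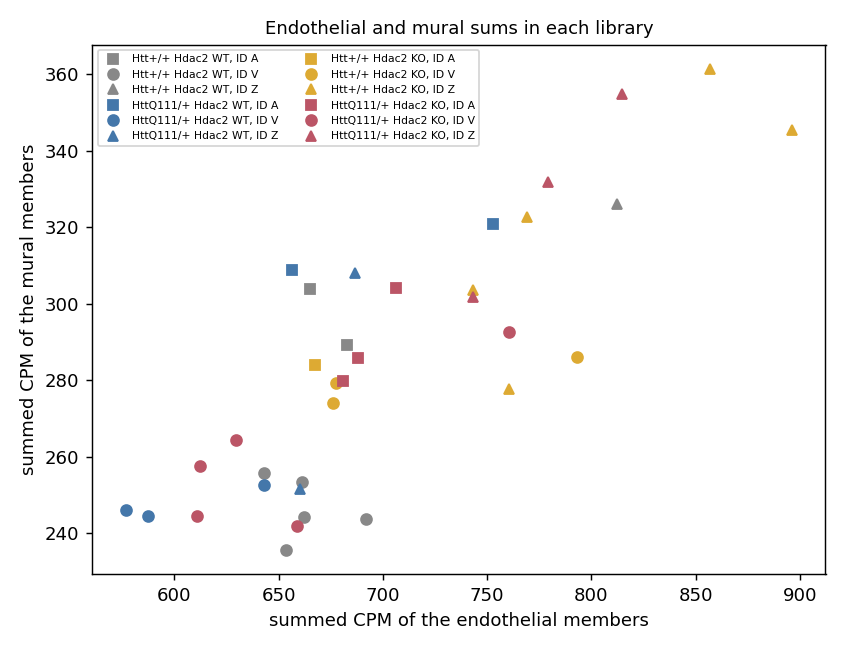
Summed CPM of the 23 endothelial genes (horizontal axis) and the 10 mural genes (vertical axis), 1 point per library, with colour for the group and shape for the ID series. Series Z (triangles, n = 11) averages 775 and 317 CPM, and series V (circles, n = 16) averages 659 and 257.

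Extraction dates nearly follow *Hdac2* genotype. Of the 6 dates, 25 and 27 May are those with libraries of both *Hdac2* genotypes, each with a single KO library. On 27 May that library is of series Z and the 3 Htt+/+ *Hdac2* WT libraries are of series V, and on 25 May it is of series A and the 2 Htt Q111/+ *Hdac2* WT libraries are of series V and Z, so neither date compares *Hdac2* genotypes within a series. On 27 May the endothelial sum was 643 to 692 CPM in 3 Htt+/+ *Hdac2* WT libraries and 896 in the KO library, replicate 9. On 25 May it was 643 and 687 in 2 Htt Q111/+ *Hdac2* WT libraries and 681 in the KO library of that genotype. The highest mean of a date was 781 CPM, on 31 May, when 4 Htt+/+ and 2 Htt Q111/+ *Hdac2* KO libraries and no *Hdac2* WT library were extracted.

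Taken as plain group means with no covariate, most of the 33 genes were higher in the KO groups. In Htt+/+ mice 31 of 33 had a higher mean CPM in KO than in WT, the exceptions being *Esam*, an adhesion molecule of endothelial junctions, and *Vwf*, von Willebrand factor, and the median log2 ratio was 0.16. The same held for 52.5% of the 17049 tested symbols. In mice with the expanded allele 27 of 33 genes were higher in KO, with a median log2 ratio of 0.08, against 51.3% of 17092 symbols. For the huntingtin genotype, 15 of 33 were higher in Htt Q111/+ than in Htt+/+ among *Hdac2* WT mice, where 51.2% of 17056 symbols were, and 5 of 33 among KO mice, where 50.0% of 17033 symbols were. The median log2 ratios were −0.02 and −0.11. Among WT mice 7 of 7 pericyte and 2 of 3 smooth muscle genes were higher with the allele. There it was 1 of 5 junction genes, 2 of 5 growth factor receptors and 2 of 6 transporters. It was 1 of 5 other endothelial markers and 0 of 2 transcription factors. Among KO mice 3 of 7 pericyte and 1 of 3 smooth muscle genes were higher. The mean marker sums of 4 glial cell types were also higher in KO. From Htt+/+ *Hdac2* WT to KO the mean sum went from 651 to 718 CPM for microglia, 302 to 330.2 for oligodendrocyte precursors, 2693 to 2807 for astrocytes and 7201 to 7758 for oligodendrocytes. In mice with the expanded allele it went from 626 to 671, 308 to 325, 2548 to 2645 and 7060 to 7306 in the same order, and the ranges of the groups overlap in all of these. The mean sum of 10 medium-spiny neuron markers went from 8106 to 8015 CPM in Htt+/+ mice. With the expanded allele it went from 6401 to 7076, and these ranges overlap too. No test was made of these counts, since the genes share their libraries and the sums above follow the ID series.

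The fit used for testing includes 9 surrogate variables, which take up differences between libraries that the 4 groups do not explain, and it centred the same genes near 0. Comparing Htt+/+ *Hdac2* KO with WT (contrast 1), 13 of 33 estimates were above 0 and their median log2 fold change was −0.03, from −0.36 to 0.40, beside a median of −0.00 over all genes tested. In mice with the expanded allele (contrast 2) it was again 13 of 33, with a median of −0.02. For the huntingtin genotype 16 of 33 were above 0 among *Hdac2* WT mice (contrast 3, median −0.00) and 12 of 33 among KO mice (contrast 4, median −0.02), the latter against 5 of 33 by plain means, which share the Htt+/+ *Hdac2* KO group and its 5 mice of series Z with the count of 31 above. The direction of many of these genes in the KO groups therefore depends on the covariates. In the average of both contrasts the estimate was above 0 for 0 of the 5 junction genes, 1 of the 5 growth factor receptors, 0 of the 2 transcription factors, 1 of the 7 pericyte genes and 1 of the 3 smooth muscle genes, where the plain means of KO were higher for 4, 5, 2, 7 and 3 of them in Htt+/+ mice and for 4, 5, 2, 5 and 2 in mice with the expanded allele. It was above 0 for 5 of the 6 transporters and 4 of the 5 other endothelial markers, whose plain means were higher for 6 and 4 and for 5 and 4. In contrast 3 the estimate was above 0 for 8 of 23 endothelial and 8 of 10 mural genes, and in contrast 4 for 7 and 5. These counts by role were not tested.

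Few of the 33 genes passed an adjusted p of 0.05 in edgeR's quasi-likelihood test. In contrast 1, 1 of 33 passed, *Slc2a1*, where 17.8% of all genes did. An unadjusted p under 0.05 was found for 4 of 33 and for 29.0% of all genes. In contrast 2 the count was 0 of 33, with 16.5% of all genes called. There 3 members had an unadjusted p under 0.05, beside 28.1% of all genes. DESeq2 called 1, where it called 17.8% of all genes. The average effect of the *Hdac2* deletion over both huntingtin genotypes gave 2 of 33, *Pltp* and *Tagln*, where 25.0% of all genes passed. Unadjusted, 4 members were under 0.05, beside 35.0% of all genes, and DESeq2 called 1, *Pltp*, beside 26.0% of all genes. When dates were fitted instead of surrogate variables, 3, 1 and 3 of 33 passed in these comparisons, where 4.80%, 1.93% and 4.62% of all genes did, and the share of vessel genes called was not tested against that of all genes.

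For the expanded huntingtin allele no vessel gene passed in the edgeR fit with surrogate variables. Among *Hdac2* WT mice (contrast 3) the count was 0 of 33, with 0.403% of all genes called. An unadjusted p under 0.05 was reached by 2 members and 10.9% of all genes, and DESeq2 called 0 members and 0.899%. Among KO mice (contrast 4) the count was 0 of 33, with 0.00584% called. Unadjusted, 2 members and 7.52% of all genes were under 0.05, and DESeq2 called 0 members and 0.263%. The average over both *Hdac2* genotypes gave 0 of 33, with 1.27% called. Unadjusted there were 2 members and 12.3% of all genes, and DESeq2 called 0 members and 2.12%. When dates, ID series or a replicate block were fitted instead of surrogate variables, 1 of 33 passed in this average, *Tagln*, lower, where 2.32%, 3.63% and 2.10% of all genes did, and with ID series it also passed in contrast 3, where 4.89% did. The interaction of both genotypes gave 0 of 33, with 0.00577% called. It gave 0 unadjusted, beside 5.63% of all genes, and 0 by DESeq2, beside 0.0173%.

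*Tagln* (transgelin, ENSMUSG00000032085, chr9:45929628-45936058 in GRCm38, minus strand) encodes an actin-binding protein of smooth muscle. In Htt+/+ *Hdac2* WT it ranged from 6.29 to 12.4 CPM with a median of 10.3, and in Htt+/+ *Hdac2* KO from 11.4 to 18.3 with a median of 16.5. In Htt Q111/+ *Hdac2* WT it ranged from 4.36 to 11.4 around 7.11, and in Htt Q111/+ *Hdac2* KO from 6.69 to 17.4 around 11.4. All 9 Htt+/+ and 10 of 11 Htt Q111/+ KO libraries lay above the median of their WT group, while the ranges overlapped in both. The average log2 fold change of the deletion was 0.37 (standard error 0.134, adjusted p = 0.0407 by edgeR). Contrast 1 gave 0.40 (adjusted p = 0.132) and contrast 2 gave 0.36 (adjusted p = 0.144), neither past the threshold. DESeq2 put the average at 0.36 with an adjusted p of 0.0672, and over 15 alternatives the estimate ran from 0.36 to 1.06, with adjusted p from 9.89e-05 to 0.121.

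On both dates that hold both *Hdac2* genotypes *Tagln* was higher in the KO library, which on each date is of another ID series than all of the WT libraries. On 27 May 3 Htt+/+ *Hdac2* WT libraries averaged 8.07 CPM and the KO library had 16.5, and on 25 May 2 Htt Q111/+ *Hdac2* WT libraries averaged 5.86 and the KO library had 14.9. With the expanded allele *Tagln* was lower on some dates and had similar means on others, with log2 differences of −1.08 on 25 May and −0.67 on 27 May among WT, −1.05 on 26 May among KO, and between −0.01 and 0.02 on 24 May, 31 May and 3 June. On 3 June a single Htt+/+ library at 11.4 CPM stood among 5 carriers at 8.28 to 16.3. The dates with a difference held mainly mice of series V. In that series *Tagln* was 4.36 to 5.72 CPM in 3 Htt Q111/+ *Hdac2* WT against 6.29 to 12.4 in 5 Htt+/+ *Hdac2* WT libraries, and 6.69 to 8.38 in 5 Htt Q111/+ *Hdac2* KO against 11.9 to 17.3 in 3 Htt+/+ *Hdac2* KO libraries, with no overlap in either pair.

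The other series showed this for *Tagln* in part. In series Z, 3 Htt Q111/+ *Hdac2* KO libraries lay between 11.4 and 17.4 CPM and 5 Htt+/+ *Hdac2* KO libraries between 13.7 and 18.3, which overlap, and in series A 3 carriers at 14.9 to 16.3 lay above the single Htt+/+ *Hdac2* KO library at 11.4, the opposite of series V. Among *Hdac2* WT mice, 2 carriers of series A had 9.71 and 11.4 against 9.31 and 10.7 in 2 Htt+/+ mice, which overlap too, but 2 carriers of series Z had 7.11 and 8.81, both below the 11.8 of the single Htt+/+ mouse of that series. Mice of series V with the expanded allele had 131 to 144 CAG repeats and those of A and Z had 110 to 118, so the length of the repeat and the series cannot be told apart. In the fit with surrogate variables the average effect of the allele on *Tagln* was −0.23 (standard error 0.111, adjusted p = 0.405), with 6 of 7 WT and 10 of 11 KO libraries below the median of the matching Htt+/+ group. It was −0.50 or −0.51 and past the threshold with the date, the ID series or a replicate block in place of these variables, the lowest adjusted p over 15 alternatives being 0.00603 and the highest 0.881.

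*Pltp* (ENSMUSG00000017754, chr2:164839518-164857626 in GRCm38, minus strand) moves phospholipids between lipoproteins and is strongly expressed by brain endothelium. It ranged from 44.5 to 59.3 CPM around a median of 46.4 in Htt+/+ *Hdac2* WT and from 51.5 to 68.9 around 57.6 in Htt+/+ *Hdac2* KO. In Htt Q111/+ *Hdac2* WT it was 41.4 to 55.5 around 50.6, and in Htt Q111/+ *Hdac2* KO 49.7 to 62.8 around 58.2. All 9 Htt+/+ and 10 of 11 Htt Q111/+ KO libraries were above the median of their WT group, with overlapping ranges. The average log2 fold change was 0.15 (standard error 0.0494, adjusted p = 0.0236), and contrast 1 gave 0.17 (adjusted p = 0.0924) and contrast 2 gave 0.13 (adjusted p = 0.130). Without Htt+/+ *Hdac2* KO replicate 9, and with 8 surrogate variables estimated anew in place of 9, the average was 0.14 with an adjusted p of 0.0560, no longer past the threshold, and over 15 alternatives the adjusted p ran from 1.23e-05 to 0.150. Within 27 May the KO library had 68.8 CPM and 3 Htt+/+ *Hdac2* WT libraries averaged 50.4, and within 25 May the KO library had 58.2 and 2 Htt Q111/+ *Hdac2* WT libraries averaged 51.0.

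*Slc2a1* (ENSMUSG00000028645, chr4:119108711-119136446 in GRCm38, plus strand) encodes the glucose transporter of the barrier, GLUT1. Its range was 47.4 to 74.6 CPM around 55.5 in Htt+/+ *Hdac2* WT and 49.2 to 112 around 55.9 in Htt+/+ *Hdac2* KO. In Htt Q111/+ *Hdac2* WT it was 44.4 to 63.7 around 54.0, and in Htt Q111/+ *Hdac2* KO 45.0 to 61.9 around 51.8. The medians of the Htt+/+ groups nearly coincide, and the value of 112 belongs to replicate 9, the KO library of 27 May, where the other 8 reached 73.5 at most. In contrast 1 the log2 fold change was 0.22, with a standard error of 0.0765 and an adjusted p of 0.0471 by edgeR, with 6 of 9 KO libraries above the WT median. Without replicate 9, again with 8 surrogate variables estimated anew, it was 0.18 and its adjusted p 0.147, and the gene was past the threshold in 3 of 16 alternatives, with adjusted p from 0.0309 to 0.846. In contrast 2 the estimate was 0.04 (adjusted p = 0.754), with 4 of 11 KO libraries above the WT median, and 5 of 16 alternatives gave it the other sign. The average effect was 0.13 (adjusted p = 0.0977). The interaction was −0.18 (standard error 0.0895, adjusted p = 0.881), so a difference between the huntingtin genotypes in this effect was not shown.

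**Figure D2:**
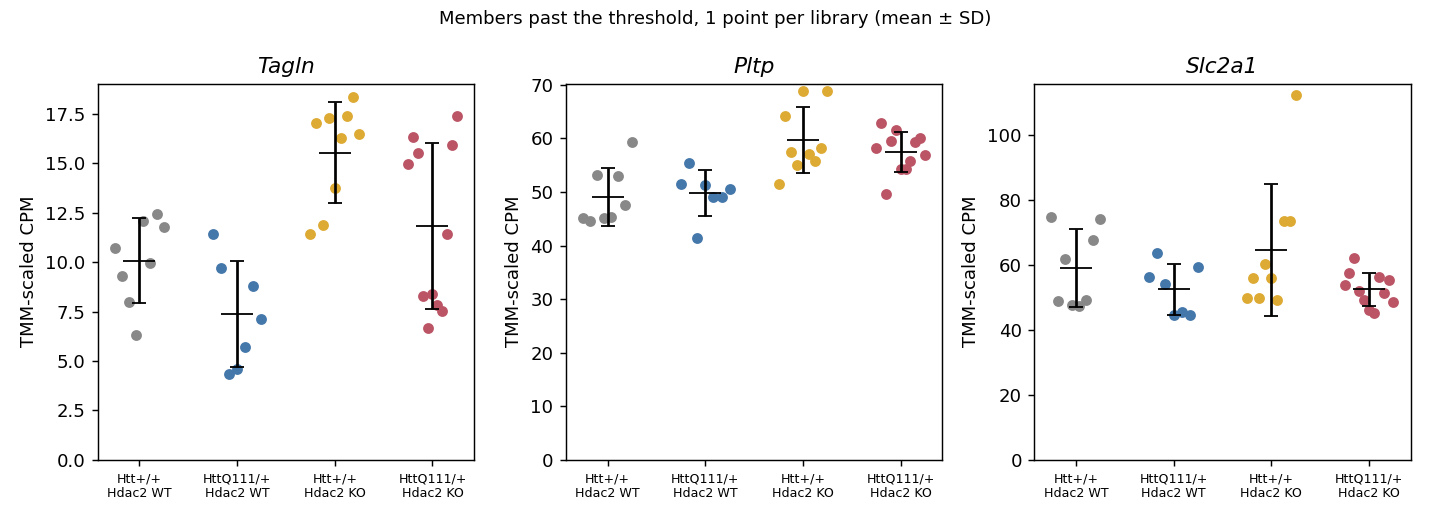
TMM-scaled CPM of *Tagln*, *Pltp* and *Slc2a1* in each library, with 1 point per library in the 4 groups and the mean ± SD in black. All 9 Htt+/+ *Hdac2* KO points of *Tagln* and *Pltp* lie above the WT medians of 10.3 and 46.4, and *Slc2a1* has a single KO point at 112.

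The remaining roles are given by a leading gene each, none of which passed in any comparison. *Cldn5* ranged from 18.8 to 28.7 CPM around 21.3 in Htt+/+ *Hdac2* WT, 16.6 to 29.2 around 22.0 in Htt Q111/+ *Hdac2* WT, 17.1 to 42.8 around 23.3 in Htt+/+ *Hdac2* KO and 16.8 to 33.7 around 24.2 in Htt Q111/+ *Hdac2* KO. The highest values, 42.8 and 38.4, came from Htt+/+ *Hdac2* KO replicates 5 and 6, both extracted on 31 May. Its average effect of the deletion was −0.22 (standard error 0.105, adjusted p = 0.129), although 6 of 9 and 9 of 11 KO libraries were above the WT medians, and with no covariates it was 0.24 (adjusted p = 0.0998, 0.0668 to 0.904 over 15 alternatives).

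*Flt1*, a receptor of vascular endothelial growth factors, showed the same dependence on covariates. Its ranges were 60.5 to 90.0 CPM around 72.9 in Htt+/+ *Hdac2* WT, 58.5 to 78.1 around 68.6 in Htt Q111/+ *Hdac2* WT, 67.2 to 100.02 around 80.3 in Htt+/+ *Hdac2* KO and 58.9 to 97.3 around 71.5 in Htt Q111/+ *Hdac2* KO. With 5 of 9 and 7 of 11 KO libraries above the WT medians, the average effect was −0.04 (adjusted p = 0.680) in the fit with surrogate variables and 0.14 with no covariates.

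*Ly6c1*, a surface protein of brain endothelium, had its highest value, 58.6 CPM, in the same Htt+/+ *Hdac2* KO replicate 9 as *Slc2a1*. Its medians were 30.1, 30.5, 34.9 and 32.7 CPM in the WT groups without and with the expanded allele and the KO groups without and with it, and the lowest libraries of these groups had 23.7, 22.0, 28.0 and 24.6. Averaged over both huntingtin genotypes, the estimate for KO against WT was 0.10 (adjusted p = 0.288), and 8 of 9 and 6 of 11 KO libraries were above the WT medians. Its sign was the same in all 15 alternatives, over which it ran from 0.05 to 0.58, and it passed in 0 of them. In contrast 1 the gene passed in 1 of 16 alternatives, that with only the libraries compared.

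*Sox17*, a transcription factor of arterial endothelium, was scarce and close to level, from 3.35 to 6.66 CPM over all libraries. The group medians were 4.52, 4.33, 4.42 and 4.54 CPM in the order above, and the average effect of the deletion was −0.05 (95% interval −0.26 to 0.15, adjusted p = 0.779), with 4 of 9 and 6 of 11 KO libraries above the WT medians. With no covariates it was 0.08.

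Among pericyte genes, *Rgs5* ranged from 114 to 172 CPM around 119 in Htt+/+ *Hdac2* WT, 114 to 166 around 126 in Htt Q111/+ *Hdac2* WT, 118 to 171 around 144 in Htt+/+ *Hdac2* KO and 97.9 to 165 around 135 in Htt Q111/+ *Hdac2* KO. In these groups 8 of 9 and 9 of 11 KO libraries exceeded the WT medians. Within series V its level was 114 to 119 in 5 Htt+/+ *Hdac2* WT and 135 to 144 in 3 Htt+/+ *Hdac2* KO libraries, without overlap. The other series went the other way, with 139 in the KO library of series A against 154 and 159 in 2 WT libraries, and 118 to 171 in 5 KO libraries of series Z against 172 in the WT library. The fit put the average effect at −0.07 (standard error 0.0514, adjusted p = 0.396), and at 0.06 with no covariates and 0.29 with the extraction date, none past the threshold.

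*Acta2*, smooth muscle actin, and *Myh11*, the smooth muscle myosin heavy chain, are the other smooth muscle genes. *Acta2* ranged from 3.87 to 8.47 CPM around 5.52 in Htt+/+ *Hdac2* WT, 4.26 to 8.11 around 5.15 in Htt Q111/+ *Hdac2* WT, 4.62 to 8.82 around 6.16 in Htt+/+ *Hdac2* KO and 4.82 to 9.85 around 6.60 in Htt Q111/+ *Hdac2* KO. Its average effect of the deletion was −0.07 (adjusted p = 0.651) and 0.22 with no covariates and 0.41 with the extraction date, with 7 of 9 and 10 of 11 KO libraries above the WT medians. *Myh11* had medians of 5.09 and 6.74 CPM in the Htt+/+ *Hdac2* WT and KO groups, with 8 of 9 KO libraries above the WT median, and medians of 6.52 and 6.32 CPM in the Htt Q111/+ *Hdac2* WT and KO groups, with 7 of 11 KO libraries below the WT median. Its contrast 2 estimate was −0.29 (standard error 0.106, adjusted p = 0.0596), which was past the threshold in 6 of 16 alternatives, DESeq2 (−0.29, adjusted p = 0.0462) and 5 edgeR fits, and the fit with the extraction date gave 0.17. Over the 16 its adjusted p ran from 0.0316 to 0.926. It is named here for the DESeq2 call.

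**Figure D3:**
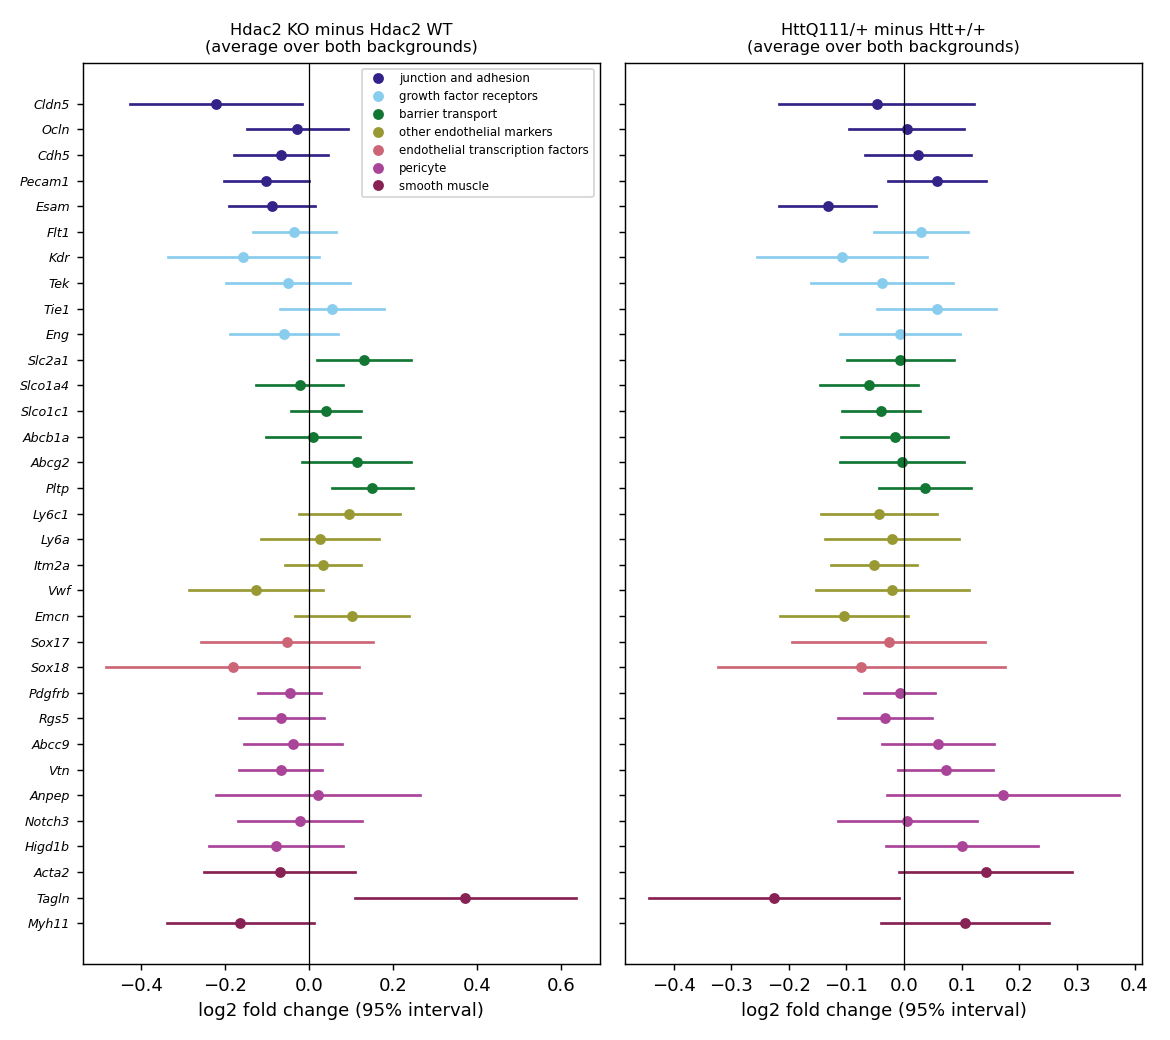
Log2 fold change with its 95% interval for each of the 33 genes, coloured by role, on the left for KO minus WT of *Hdac2* and on the right for Htt Q111/+ minus Htt+/+, both averaged over the other genotype in the fit with surrogate variables. *Tagln* (0.37) and *Pltp* (0.15) are those past the threshold, both on the left, and the *Tagln* estimate on the right is −0.23.

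For the expanded huntingtin allele no leading gene passed. Its average effect in the fit with surrogate variables was −0.05 for *Cldn5* (adjusted p = 0.876, 4 of 7 WT and 6 of 11 KO libraries with the allele above the matching Htt+/+ median), 0.03 for *Flt1* (0.827, 3 and 4 above) and −0.04 for *Ly6c1* (0.786, 4 and 2 above), for which it was −0.21 with no covariates and −0.24 with the extraction date, neither past the threshold. It was −0.03 for *Sox17* (0.933, 1 and 6 above) and −0.03 for *Rgs5* (0.809, 5 and 4 above), and some alternative gave each of these 5 the other sign. For *Acta2* it was 0.14 (adjusted p = 0.466), with 3 of 7 WT and 7 of 11 KO libraries above the matching Htt+/+ median, and its sign was the same in all 15 alternatives. The lowest unadjusted p of the 33 was that of *Esam*, with ranges of 7.30 to 12.03 CPM in Htt+/+ *Hdac2* WT and 6.96 to 9.10 in Htt Q111/+ *Hdac2* WT, and of 7.29 to 10.5 and 6.28 to 8.59 in the KO groups. For this gene 6 of 7 WT and all 11 KO libraries with the allele were below the matching Htt+/+ median, but the gene did not pass after adjustment. *Esam* was named after its values were seen.

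Over mice, 2 of 3 chosen pairs of these genes varied together. Deviations of log2 CPM from the group means were correlated for 3 pairs of genes over 35 libraries, with permutation p values adjusted over the 3 by the Benjamini-Hochberg method. The endothelial junction genes *Cldn5* and *Pecam1*, which encodes an adhesion molecule, gave Pearson r = 0.557 (permutation p = 0.000760, adjusted 0.00114) and Spearman rho = 0.622 (permutation p = 8.00e-05, adjusted 0.000240). Without the 2 libraries farthest from the *Cldn5* median r was 0.514. Within extraction dates of 6 libraries each, r was 0.00158 on 25 May, 0.816 on 26 May, 0.369 on 27 May, 0.717 on 31 May and 0.532 on 3 June, and 24 May had 5 libraries, too few for a value.

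The pericyte gene *Rgs5* and the smooth muscle gene *Acta2* gave r = 0.578 (permutation p = 0.000320, adjusted 0.000960) and rho = 0.522 (permutation p = 0.00152, adjusted 0.00228), and r was 0.458 without the 2 farthest libraries. Its values within dates were 0.737 on 25 May, −0.591 on 26 May, 0.504 on 27 May, 0.307 on 31 May and 0.487 on 3 June, the sign being opposite on 26 May. The endothelial gene *Cldn5* and *Rgs5* gave r = 0.139 (permutation p = 0.425, adjusted 0.425) and rho = 0.0768 (permutation p = 0.659, adjusted 0.659), and 0.0357 without the 2 farthest libraries, with r of −0.499, 0.141, 0.218, 0.468 and 0.254 within the dates in the same order. The ID series, with which both sums move, was not removed from these deviations. The deviations of *Cldn5* had r = 0.484 with the mean of those of the other 22 endothelial genes. Among the 23 this value ran from 0.331 for *Slc2a1* to 0.897 for *Pecam1*. The pair *Cldn5* and *Rgs5* therefore does not describe the endothelial and mural genes as sets, whose relation was not tested.

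Genes that act on vessels were listed by pathway. Beside the calls in these lists stand the shares of all genes called, 17.8%, 16.5%, 0.403% and 0.00584% in contrasts 1 to 4. They were 0.00577% for the interaction, and 25.0% and 1.27% for the average effects of the deletion and of the allele. At an unadjusted p under 0.05 the shares were 29.0%, 28.1%, 10.9% and 7.52% in contrasts 1 to 4. They were 5.63% for the interaction, and 35.0% and 12.3% for these average effects. Of 22 ligands and further receptors, 21 were tested. The average effect of the deletion called 1 higher, *Pgf*, placental growth factor, which binds *Flt1* (0.47, adjusted p = 0.0151, 9 of 9 and 10 of 11 KO libraries above the WT medians), and 1 lower, *Vegfb*, a further ligand of *Flt1* (−0.15, adjusted p = 0.00281, 6 of 9 and 8 of 11 below), where 25.0% of all genes passed. Of 15 alternatives, 3 ended the call of *Pgf* and 7 that of *Vegfb*. Contrast 1 called *Vegfb* alone, lower, and contrast 2 called *Vegfb* lower and *Pgf* and *Acvrl1* higher. *Acvrl1*, a receptor for bone morphogenetic proteins that works with endoglin, had 0.24 in contrast 2 (adjusted p = 0.0368), with 10 of 11 KO libraries above the median of 63.5 CPM, while 6 of 9 Htt+/+ KO libraries were below their WT median, and 6 of 16 alternatives ended its call. The average effect of the expanded allele called *Ednrb*, an endothelin receptor, lower (−0.15, adjusted p = 0.0154), with 6 of 7 WT and 10 of 11 KO libraries below the matching median, a call lost in 11 of 15 alternatives (adjusted p up to 0.457). Contrasts 3 and 4 and the interaction called 0 of the 21, with 3, 2 and 2 at an unadjusted p under 0.05.

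Of 11 genes of Notch signalling, the average effect of the deletion called 2, both higher, where 25.0% of all genes passed. *Dll4*, the Notch ligand of arterial and sprouting endothelium, rose from medians of 2.64 and 2.19 CPM in the WT groups to 3.80 and 3.22 in the KO groups, with 8 of 9 and 11 of 11 libraries above the WT medians (0.47, adjusted p = 0.00139). *Rbpj*, through which Notch acts on transcription, had 0.11 (adjusted p = 0.0349), with 8 of 9 and 9 of 11 above, a call lost in 7 of 15 alternatives, while that of *Dll4* was lost in 1. *Dll4* was also called in contrast 2. Contrasts 1, 3 and 4, the interaction and the average effect of the allele called 0 of the 11, with 2, 1, 0, 0 and 1 at an unadjusted p under 0.05.

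Of 14 genes of the Wnt pathway of the blood-brain barrier, the average called *Axin2* and *Ctnnb1*, both higher, where 25.0% of all genes passed. *Axin2*, a target of this pathway, ranged from 16.5 to 23.1 CPM in Htt+/+ *Hdac2* WT and 22.8 to 28.0 in Htt+/+ *Hdac2* KO, and from 16.8 to 21.5 and 20.6 to 27.9 in mice with the expanded allele, and all 9 and all 11 KO libraries were above the WT medians (0.25, adjusted p = 3.65e-05). It was called in contrasts 1 and 2 as well, and contrasts 3 and 4, the interaction and the average effect of the allele called 0 of the 14 (0, 1, 0 and 1 at an unadjusted p under 0.05). *Ctnnb1*, which encodes beta-catenin, had 0.06 (adjusted p = 0.0219), with 9 of 9 and 7 of 11 above, a call lost in 5 of 15 alternatives, while that of *Axin2* was lost in 1. The median of the 14 estimates was 0.05, beside 0.00 over all genes tested.

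Of 26 further barrier and vessel genes, the average called 3, where 25.0% of all genes passed. *Mfsd2a*, the lipid transporter that restrains transcytosis, was higher (0.21, adjusted p = 0.00402, 8 of 9 and 9 of 11 above the WT medians), as was *Vcam1*, an adhesion molecule (0.16, adjusted p = 0.00713, 9 of 9 and 11 of 11 above). *Plvap*, the diaphragm protein of leaky vessels, was lower (−0.25, adjusted p = 0.0119, 7 of 9 and 8 of 11 below). Of 15 alternatives, 7 ended the call of *Mfsd2a*, 3 that of *Vcam1* and 7 that of *Plvap*. Contrast 1 called *Vcam1* and *Mfsd2a*, contrast 2 called *Mfsd2a* and *Plvap*, and contrasts 3 and 4, the interaction and the average effect of the allele called 0 of the 26 (0, 1, 0 and 0 at an unadjusted p under 0.05). Of 14 endothelial regulators the average and contrast 1 called *Foxo1*, a forkhead factor, lower (average −0.13, adjusted p = 0.0192, 8 of 9 and 10 of 11 below), and of 18 further mural genes, 16 or 17 of them tested, the average called *Mkl1*, a coactivator of smooth muscle transcription, lower (−0.11, adjusted p = 0.0187, 7 of 9 and 9 of 11 below), calls lost in 5 and 3 of 15 alternatives. Contrast 2 called *Tpm2*, a tropomyosin of smooth muscle, higher (0.32, adjusted p = 0.0460), with 10 of 11 KO libraries above the median of 13.1 CPM, a call lost in 9 of 16 alternatives, over which the estimate ran from 0.13 to 0.76. Neurons and glia express several of these genes too, *Vegfb*, *Axin2*, *Ctnnb1*, *Foxo1* and *Mkl1* among them, and the bulk counts do not separate the cells.

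Markers of other cell types were read beside the vessel genes. No marker of oligodendrocytes (10 tested), oligodendrocyte precursors (6), microglia (10), perivascular macrophages (5 or 6), fibroblasts and meninges (10), cortical projection neurons (6), ependyma (3) or blood cells (6) was called by edgeR in any of the 7 comparisons. Of 10 astrocyte markers, *Slc1a2*, a glutamate transporter, was lower in contrasts 1 and 2 and in their average (−0.19, adjusted p = 0.00234, 6 of 9 and 7 of 11 below the WT medians), and was 0.07 in the fit with the extraction date, which is 1 of 6 alternatives of 15 that ended the call of the average. The astrocyte markers as a group, *Slc1a2* included, did not share its direction, with 6 of 10 estimates of the average above 0 and a median of 0.01. *Aqp4*, the water channel of the astrocyte endfeet that sheathe vessels, was lower in contrast 3 (−0.26, adjusted p = 0.0122), with a median of 111 CPM in Htt Q111/+ *Hdac2* WT against 126 in Htt+/+ *Hdac2* WT and 6 of 7 libraries below the latter, a call lost in 7 of 16 alternatives. Its average effect of the allele was −0.15 (adjusted p = 0.0181), with 6 of 11 KO libraries below, lost in 6 of 15. Of 10 medium-spiny neuron markers, the average effects called 2 higher and 1 lower for the deletion and 6 lower for the allele, where 25.0% and 1.27% of all genes passed, of 6 interneuron markers 1, *Sst*, lower for the deletion, and of 5 choroid plexus markers *Clic6* higher (0.39, adjusted p = 0.000126, 8 of 9 and 10 of 11 above), while 3 of the 5 estimates were below 0 and their median was −0.49. Contrast 1 also called the choroid plexus marker *Ttr* lower (−3.12, adjusted p = 0.0359, 9 of 9 below a WT median of 18.3 CPM), and 7 of 16 alternatives ended the call, the date in the fit also turning its sign.

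Blood and fibroblast markers were summed as well, beside the vessel genes. The 6 blood cell genes tested summed to 156 ± 32.1 CPM (SD, n = 8) in Htt+/+ *Hdac2* WT, 166 ± 38.1 (n = 7) in Htt Q111/+ *Hdac2* WT, 167 ± 28.5 (n = 9) in Htt+/+ *Hdac2* KO and 162 ± 35.1 (n = 11) in Htt Q111/+ *Hdac2* KO, and *Hbb-bs* was 39.8% of this sum. The 10 fibroblast and meninges genes summed to 117 ± 12.9, 119.7 ± 7.95, 127 ± 12.97 and 126 ± 14.1 CPM, and 56.1% of that was *Pdgfra*, which oligodendrocyte precursors express as well. The library with the highest endothelial sum, Htt+/+ *Hdac2* KO replicate 9, also had the highest fibroblast and meninges sum at 158, the highest astrocyte sum at 3190.3 and the highest microglia sum at 797, and their part in its *Slc2a1* value was not tested.

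Counts were read as covering whole gene intervals, and the strand was not stated, so overlapping genes can add to a member. *Pltp* overlaps *Ctsa* on the opposite strand by 1515 bases, and *Ctsa*, at a mean of 98.8 CPM, had an average effect of 0.02 (adjusted p = 0.604). *Tagln* overlaps *Pcsk7* by 99 bases, and *Pcsk7* had −0.05 (adjusted p = 0.425). It also overlaps the antisense transcript *Gm48529* by 3627 bases, which has no row in the deposited counts, so its part was not tested. The largest overlap with a gene of the table was that of *Notch3*, the Notch receptor of mural cells, with the antisense transcript *Gm17276*, 21024 bases, whose average effect of the deletion was −0.51 (adjusted p = 5.56e-05) while *Notch3* itself was not called. *Slc2a1* overlaps the antisense transcripts *Gm12867* by 710 and *Gm12868* by 2698 bases. Close copies of members, *Abcb1b* of *Abcb1a*, *Ly6c2* of *Ly6c1* and *Slco1a1* of *Slco1a4*, had means of 4.64, 1.62 and 0.271 CPM, and none was called in any comparison.

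Promoters of 22 of the 33 genes are in the RefSeq promoter table (build GRCm38.p6), *Tagln* not among them. In the 250 bases before a start, the letters ACAGGAAG or ACCGGAAG, a core bound by ETS factors, were looked for on both strands, as was the CArG box of smooth muscle genes. The ETS letters were found in 4.57% of 32851 promoters and in 2 of the 22 genes, *Abcg2*, a drug efflux pump, and *Emcn*, the sialoprotein endomucin. A gene can have several promoters, as *Abcg2* has, so the share of promoters and the count of genes are not on the same scale. The CArG box was found in 1.47% of the promoters and in 0 of the 22, which says no more than that these windows lack the letters. The promoters of *Pltp* and *Slc2a1* are shown because these genes passed the threshold, and that of *Emcn* because its window holds the ETS letters, in capitals, 174 to 167 bases before the RefSeq start. Each window ends at the start of the gene in the annotation file, which for *Pltp* lies 85 bases outside the interval given above, and is read 5′ to 3′ on the strand of its gene.
Pltp, chr2:164857712-164857958, minus strand: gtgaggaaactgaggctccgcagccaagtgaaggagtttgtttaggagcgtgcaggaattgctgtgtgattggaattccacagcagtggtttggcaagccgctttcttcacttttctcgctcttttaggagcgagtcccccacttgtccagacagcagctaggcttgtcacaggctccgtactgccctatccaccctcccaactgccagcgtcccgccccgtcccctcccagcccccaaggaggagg
Slc2a1, chr4:119108495-119108710, plus strand: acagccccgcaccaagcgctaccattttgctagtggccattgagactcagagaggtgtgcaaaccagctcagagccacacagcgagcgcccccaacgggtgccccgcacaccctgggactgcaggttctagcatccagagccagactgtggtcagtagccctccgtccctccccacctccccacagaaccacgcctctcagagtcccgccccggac
Emcn, chr3:137340828-137341066, plus strand: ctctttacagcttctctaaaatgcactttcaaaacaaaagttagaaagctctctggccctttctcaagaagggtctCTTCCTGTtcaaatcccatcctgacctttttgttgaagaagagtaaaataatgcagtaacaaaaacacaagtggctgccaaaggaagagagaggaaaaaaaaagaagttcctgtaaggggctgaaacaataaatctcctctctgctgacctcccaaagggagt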

How the data were processed

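The values are counts per gene as the authors deposited them. The authors prepared TruSeq Stranded mRNA libraries, sequenced paired 75 bp reads on a HiSeq2000 and aligned with GSNAP to GRCm38. They counted unique alignments at Ensembl 75 genes with BEDTools, read here as counts over whole gene intervals, introns included. The strand counted was not stated.

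Of 39109 rows, 92 ERCC sequences, 6152 genes of at most 250 nt and 2 rRNA genes were removed, which left 32863. A gene was tested where each library of at least 1 compared group had 6 counts or more. Counts were scaled by trimmed mean of M values (TMM) and fitted with edgeR 4.0.16 (quasi-likelihood test, older form) in R 4.3.3 with 9 surrogate variables from svaseq (sva 3.50.0), and p values were adjusted by the Benjamini-Hochberg method. Comparisons were KO against WT in Htt+/+ (contrast 1) and Htt Q111/+ (contrast 2), Htt Q111/+ against Htt+/+ in *Hdac2* WT (contrast 3) and KO (contrast 4), their interaction and both averages. DESeq2 1.42.0 was the second tool. Correlations used 100000 permutations and CPM on a log scale a prior count of 1.

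All 33 genes are accounted for. Full values are given for members past an adjusted p of 0.05 in a contrast or average and for the leading member of each role (*Cldn5*, *Flt1*, *Slc2a1*, *Ly6c1*, *Sox17*, *Rgs5*, *Acta2*), the others by range and count, and from other lists at most 4 genes per list and comparison with the lowest adjusted p among those past 0.05. The members and the lists were chosen with earlier results of these data known. Chosen after the values were seen were the 2 libraries left out in turn, the overlapping genes and close copies, the 3 promoters shown, the alternatives for genes of other lists, the counts of higher group means without covariates, levels by ID series, and *Esam* and *Myh11*.

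The scripts were tested on simulated data first. Of 595 pairs of libraries 0 had identical counts. Pairs of libraries with the same replicate number in 2 groups had a median r of 0.0375 (15 of 45 pairs over 0.1), and the others −0.00878 (80 of 410). The numbers rise with the ID series within each group and no label pairs the mice, so replicate block is an alternative only.

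Each mouse is 1 library of bulk tissue, so levels are not per cell. Extraction date nearly follows *Hdac2* genotype, with a single KO library on each of the 2 dates that hold both genotypes, and the ID series is unevenly spread over groups. Surrogate variables can take up part of a group difference or of a cell type's share, and the signs of many vessel genes in the KO comparisons depend on them. Cre and deletion cannot be told apart, nor can repeat length and ID series among mice with the expanded allele. Introns and overlapping genes can add to counts. Protein, vessel density and cell numbers were not measured here.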

Additional observations from a re-analysis of the deposited data

Results flagged for a closer look

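Of 75 groups of values looked at for a single library far from the rest, 12 had one. About 1 in 20 groups would have one by chance, and groups that share genes or libraries are not independent. The rule was not applied to Htt Q111/+ *Hdac2* KO (n = 11), which is larger than the groups it covers. In that group the choroid plexus sum was 145 CPM in replicate 1, where the group median was 35.1, and this was not screened.

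*Slc2a1* was 112 CPM in Htt+/+ *Hdac2* KO replicate 9, with 49.2 to 73.5 in the other 8, and *Ly6c1* was 58.6 in the same library, with 28.0 to 40.2 in the others. The fibroblast and meninges sum of this library was 158, with 112 to 132 in the others. It is the single KO library of 27 May.

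Htt+/+ *Hdac2* WT replicate 9, the single mouse of ID series Z in its group, had *Acta2* at 8.47 CPM (others 3.87 to 6.01), an endothelial sum of 813 (643 to 692), a smooth muscle sum of 28.8 (17.99 to 22.2), an astrocyte sum of 3011 (2508 to 2727) and an interneuron sum of 246 (182 to 206).

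The oligodendrocyte sum was 10513 in Htt+/+ *Hdac2* KO replicate 1 (others 6530 to 7996), the oligodendrocyte precursor sum was 346 in Htt+/+ *Hdac2* WT replicate 2 (286 to 307), the cortical projection neuron sum was 420 in Htt Q111/+ *Hdac2* WT replicate 7 (8.18 to 86.2) and the choroid plexus sum was 210 in Htt+/+ *Hdac2* WT replicate 1 (17.5 to 65.8). All 35 libraries were kept. Results without the KO replicate 9 and without the Htt Q111/+ *Hdac2* WT replicate 7 are given among the alternatives.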

How the results depend on the processing

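Each comparison was run again under 14 alternatives chosen beforehand and without each of 2 libraries chosen after the values were seen. The alternative with only the libraries of the groups compared does not apply to the interaction and the averages and was not run for them. Surrogate variables were estimated anew where genes or libraries changed, so their number changed too, from 9 to 8 with no filter, with at least 20 counts and without either library, to 7 or 8 without the 2 A mice, to 6 with males only and to 4 or 5 with only the libraries compared. The part of either change in a value was not tested. The 9 named members in 7 comparisons make 63 pairs with 981 alternative values, of which 198 in 44 pairs have the other sign, and 0 of these passed an adjusted p of 0.05. Signs below are those of the results given in the text above, and the other changed signs enter the counts just given alone.

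The count of members past the threshold in contrast 1, which was 1, became 5 with no covariates, 4 with sex, 3 with extraction date, 3 with ID series and 8 with replicate block in place of the surrogate variables. It was 0 with the replicate block added to them, 0 with no filter, 2 with at least 20 counts and 7 with only the libraries compared. It was also 0 without the 2 Htt+/+ *Hdac2* WT mice whose ID begins with A. Without Htt+/+ *Hdac2* KO replicate 9 it was 0, and without Htt Q111/+ *Hdac2* WT replicate 7 it was 2. Of all genes, 23.4%, 23.1%, 4.80%, 21.8% and 25.4% passed with no covariates, sex, extraction date, ID series and replicate block. For the other alternatives in the order given, 4.92%, 10.2%, 20.2%, 29.7%, 22.4%, 16.6% and 20.8% of all genes did. In contrast 2, which had 0, the count was 2 with no covariates, 2 with sex, 1 with date, 3 with ID series and 1 with replicate block. It was 1 by DESeq2, 1 with the newer quasi-likelihood form, 1 with no filter and 2 with at least 20 counts. It was 3 with only the libraries compared, 3 without the 2 A mice and 1 without KO replicate 9. In that order the shares of all genes called were 13.5%, 13.6%, 1.93%, 16.8%, 10.8%, 17.8%, 16.9%, 8.96%, 22.0%, 18.7%, 20.5% and 16.5%. In contrast 3, which had 0, the count was 1 with ID series, *Tagln*, where 4.89% of all genes passed.

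For the average effect of the deletion, which had 2, the count was 7 with no covariates, 7 with sex, 3 with date, 3 with ID series and 6 with replicate block. It was 0 with replicate block added, 1 by DESeq2, 1 with no filter and 1 with males only. It was 3 without the 2 A mice and 1 without KO replicate 9. In that order the shares of all genes called were 31.8%, 32.1%, 4.62%, 31.6%, 30.4%, 12.8%, 26.0%, 15.4%, 17.7%, 30.7% and 23.8%. The 7 with no covariates were *Emcn*, *Itm2a*, *Notch3*, *Pltp*, *Slco1c1*, *Tagln* and *Tie1*, and without the 2 A mice *Vwf*, lower, joined *Pltp* and *Tagln*. For the average effect of the expanded allele, which had 0, the count was 1 with date, 1 with ID series and 1 with replicate block. This was *Tagln* each time, with log2 fold changes of −0.50, −0.51 and −0.50, where 2.32%, 3.63% and 2.10% of all genes passed. In contrast 4 and the interaction the count stayed 0 in each alternative.

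The call of *Slc2a1* in contrast 1 was lost in 13 of 16 alternatives (0.04 to 0.61). The call of *Pltp* in the average effect of the deletion was lost in 3 of 15 (0.10 to 0.35), with replicate block added, with no filter and without KO replicate 9. That on *Tagln* was lost in 3 of 15 (0.36 to 1.06), with replicate block added, by DESeq2 and with males only. *Pltp* passed in 9 of 16 alternatives of contrast 1 and 6 of contrast 2, *Tagln* in 8 and 7, and *Myh11* in 6 of 16 of contrast 2.

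Signs changed as follows. *Slc2a1* in contrast 2 was −0.00600 with no covariates, −0.0755 with replicate block, −0.0530 with no filter, −0.0335 with only the libraries compared and −0.0656 without the 2 A mice, and its average effect of the deletion was −0.0283 without the 2 A mice. *Myh11* in contrast 2 was 0.17 with date.

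The average effect of the deletion on *Cldn5* was 0.24 with no covariates, 0.24 with sex, 0.19 with date, 0.16 with ID series, 0.20 with replicate block and 0.0234 without the 2 A mice. On *Flt1* it was 0.14 with no covariates, 0.15 with sex, 0.19 with date, 0.0804 with ID series, 0.10 with replicate block, 0.00920 with at least 20 counts and 0.11 with males only. On *Sox17* it was 0.0832 with no covariates, 0.0876 with sex, 0.0450 with date, 0.0504 with ID series, 0.0488 with replicate block and 0.00710 with males only. On *Rgs5* it was 0.0573 with no covariates, 0.0686 with sex, 0.29 with date, 0.0290 with ID series and 0.0399 with replicate block. On *Acta2* it was 0.22 with no covariates, 0.23 with sex, 0.41 with date, 0.17 with ID series, 0.22 with replicate block, 0.0641 with replicate block added and 0.10 with males only.

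The average effect of the expanded allele on *Cldn5* was 0.00692 with date, 0.0272 with males only and 0.0384 without Htt Q111/+ *Hdac2* WT replicate 7, and without KO replicate 9 it kept its sign at −0.0236. On *Flt1* it was −0.0796 with no covariates, −0.0769 with sex, −0.0563 with date, −0.0670 with ID series, −0.0853 with replicate block and −0.0144 without the 2 A mice. On *Ly6c1* it was 0.000230 with replicate block added and 0.00768 with males only, and as low as −0.24 with date. On *Sox17* it was 0.0861 with males only and 0.0312 without Htt Q111/+ *Hdac2* WT replicate 7, and without KO replicate 9 it kept its sign at −0.0203. On *Rgs5* it was 0.0695 without the 2 A mice. That of *Acta2* and the deletion effect on *Ly6c1* kept their sign in all 15.

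Among genes of the other lists, *Slc1a2* was 0.0613 in contrast 1 and 0.0712 in the average effect of the deletion with date, and *Ttr* was 0.22 in contrast 1 with date. Calls of the average effect of the deletion were lost in 7 of 15 alternatives for *Vegfb*, *Rbpj*, *Mfsd2a* and *Plvap*, 6 for *Slc1a2* (1 of them with the sign turned), 5 for *Ctnnb1* and *Foxo1*, 3 for *Pgf*, *Vcam1* and *Mkl1*, 1 for *Dll4* and *Axin2*, 0 for *Clic6* and 2 for *Hdac2*. Those of the expanded allele were lost in 11 for *Ednrb* and 6 for *Aqp4*. Of 16 alternatives, calls were lost in 6 for *Acvrl1* and 9 for *Tpm2* in contrast 2, 7 for *Aqp4* in contrast 3, and 11 for *Slc1a2* and 7 for *Ttr* in contrast 1 (1 of them each with the sign turned).

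The summed CPM of endothelial and mural genes kept the sign of each group difference from Htt+/+ *Hdac2* WT without scaling and as mean log2 CPM, and moved by less than its SD. The 3 relations kept sign and call with deviations from the means of group and sex.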
